A study of Mus musculus with 10 samples.

Results

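The resting state of macrophages without Atf3 was described by setting unstimulated Atf3-/- bone marrow-derived macrophages against unstimulated wild type ones. The comparison used 6 of the 10 arrays of the series, chosen by their titles, with 3 arrays for each genotype. The other 4 arrays, 2 for Atf3-/- cells and 2 for wild type cells given LPS at 10 ng/mL for 4 h, served for a second look at the same genes. Per the labels all cells came from female C57BL/6J mice aged 8 to 12 weeks. The female label was not checked, and 4 rows described below divide the arrays in a way that no label explains. The cells were grown from femoral marrow with recombinant human M-CSF, a growth factor for macrophages. The sources used here do not give the design of the Atf3 deletion, the number of mice behind an array or any pooling of animals. Replicate arrays may thus be technical, and p-values cover only the spread among them.

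ATF3 is a basic leucine zipper transcription factor of the ATF/CREB family. It is an early response gene, low in many resting cells and induced by stress and by Toll-like receptor signals, and in macrophages it is known to restrain inflammatory genes such as those of cytokines. Bone marrow-derived macrophages are a standard primary culture of such cells, and without a microbial stimulus they are taken as resting.

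Affymetrix Mouse Genome 430 2.0 arrays gave 1 log2 expression value per Ensembl gene ID, here called a gene. The files do not pair the IDs with gene names, and 0 of the 16860 IDs were found in the RefSeq gene table at hand. Gene symbols, pathways, cell type markers, sequences and the level of Atf3 itself were therefore not analysed here. The genotype labels thus rest on no measurement of the targeted gene, and the labelled cell type on no marker. At most 2 IDs in each direction are named, those with the largest difference.

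After 4 rows were left out, 16856 genes were tested. These rows behaved as a switch, each array being high or low in all 4, with 1 row running opposite to the other 3. In the row used to define the 2 states, ENSMUSG00000086503, Atf3-/- arrays without LPS lay at 2.94, 3.22 and 9.08 on the log2 scale, against 9.25, 9.57 and 9.38 in wild type arrays without LPS. Atf3-/- replicates 1 and 2 were thus in the low state, while Atf3-/- replicate 3 was in the high state with all 3 wild type arrays. State and genotype were therefore partly confounded, with 1 of 3 Atf3-/- arrays and 3 of 3 wild type arrays in the high state. The labels give female mice for every array and name nothing that divides them in this way. Without gene names the female label was not checked against sex-linked genes, and whether the states follow the sex of the mice was not tested. Results are therefore given for all 6 arrays and also for Atf3-/- replicate 3 alone against the 3 wild type arrays, which share its state.

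The gene with the largest increase, ENSMUSG00000029322, had values of 7.71, 7.26 and 7.76 in Atf3-/- arrays without LPS, against 3.69, 3.28 and 3.95 in wild type arrays without LPS. All 3 Atf3-/- arrays were high, all 3 wild type arrays were low, and 3.31 log2 units separated the nearest arrays of the groups. The means were 7.58 ± 0.28 in Atf3-/- and 3.64 ± 0.34 in wild type (SD, n = 3 each), a log2 difference of 3.94 (SE 0.20, limma adjusted p = 7.79e-07), or 15.3-fold. With Atf3-/- replicate 3 as the only Atf3-/- array the difference was 4.12, although that array also took part in choosing the gene. ENSMUSG00000034438 had values of 6.60, 6.31 and 6.45 in Atf3-/- arrays and of 2.98, 2.85 and 3.22 in wild type arrays. Here too the groups stood well apart, with 3.10 log2 units between the nearest arrays. Its log2 difference was 3.44 (SE 0.12, limma adjusted p = 4.48e-08), or 10.9-fold, and it was 3.44 with Atf3-/- replicate 3 alone. The lowest value on the unstimulated arrays was 2.26, so the wild type levels of both genes lay near the bottom of the scale. Background signal makes up much of a value there, and the folds depend on the submitters' background correction.

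In the opposite direction, ENSMUSG00000056071 had values of 4.36, 4.59 and 4.32 in Atf3-/- arrays without LPS, against 8.31, 8.60 and 8.43 in wild type arrays without LPS. Its arrays were as clearly divided by genotype, with a gap of 3.73 log2 units. The log2 difference was -4.02 (SE 0.11, limma adjusted p = 3.86e-09), which made it the one gene that was at least 16-fold lower. ENSMUSG00000056054 had values of 4.49, 4.71 and 4.07 in Atf3-/- arrays and of 8.27, 8.55 and 8.36 in wild type arrays. Atf3-/- replicate 3 was the lowest of its group in both genes. The log2 difference of ENSMUSG00000056054 was -3.97 (SE 0.16, limma adjusted p = 9.76e-08), and the gap between the groups was 3.56. The Atf3-/- means of ENSMUSG00000056071 and ENSMUSG00000056054 lay above only 33.0% and 33.1% of all Atf3-/- means. Their folds may thus also depend on the background correction. With Atf3-/- replicate 3 alone the differences were -4.12 for ENSMUSG00000056071 and -4.32 for ENSMUSG00000056054, and that array also took part in choosing both genes.

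**Figure D1:**
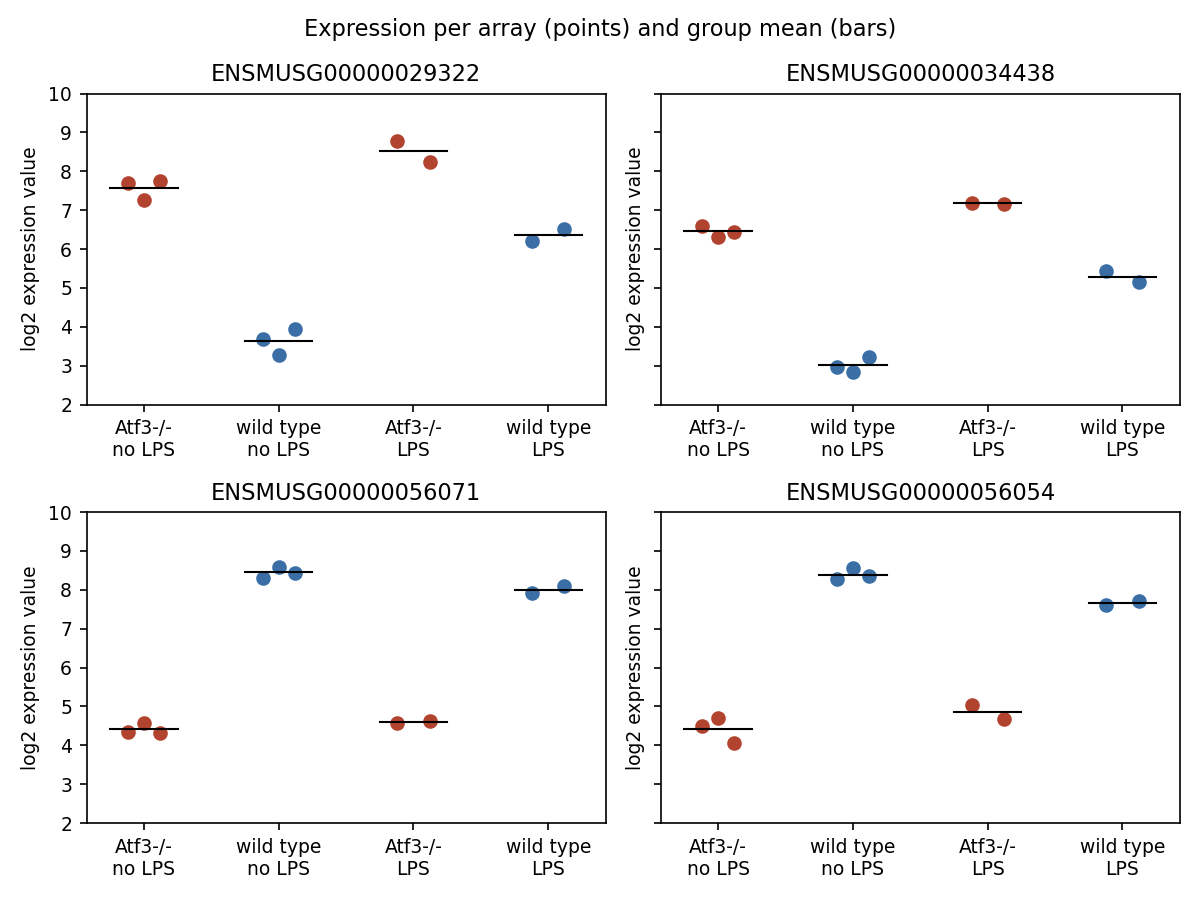
Log2 expression value (vertical axis) of the 2 genes with the largest increase (upper panels) and the 2 with the largest decrease (lower panels) in each array (points), with group means (bars), for Atf3-/- and wild type cells without LPS (3 arrays each) and with LPS (2 arrays each). Without LPS the upper genes lay at 6.31 to 7.76 in Atf3-/- and at 2.85 to 3.95 in wild type, and the lower genes at 4.07 to 4.71 in Atf3-/- and at 8.27 to 8.60 in wild type.

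Differences of this size were rare. Of the 16856 genes 2159 passed the threshold of an adjusted p of 0.05, which is 12.8% of those tested. Higher expression in Atf3-/- was called for 1210 genes (7.18%) and lower expression for 949 (5.63%). With any 1 of the 6 arrays left out, 693 to 867 genes were called higher and 506 to 653 lower, the fewest in both directions without Atf3-/- replicate 2. Without Atf3-/- replicate 3 the counts were 769 higher and 570 lower, without wild type replicate 1 they were 780 and 608, and without wild type replicate 3 they were 725 and 607. Under quantile normalization the balance of directions turned, with 998 higher and 1104 lower. The log2 difference had a median of 0.53 among the genes called higher and of -0.53 among those called lower, beside -0.00068 over all genes. A difference of at least 2-fold together with the threshold was found for 206 genes, 1.22% of those tested. Of these 133 were higher (0.789%) and 73 were lower (0.433%) in Atf3-/-. At least 4-fold differences were found for 15 genes higher and 9 lower, and at least 8-fold differences for 3 higher and 2 lower.

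**Figure D2:**
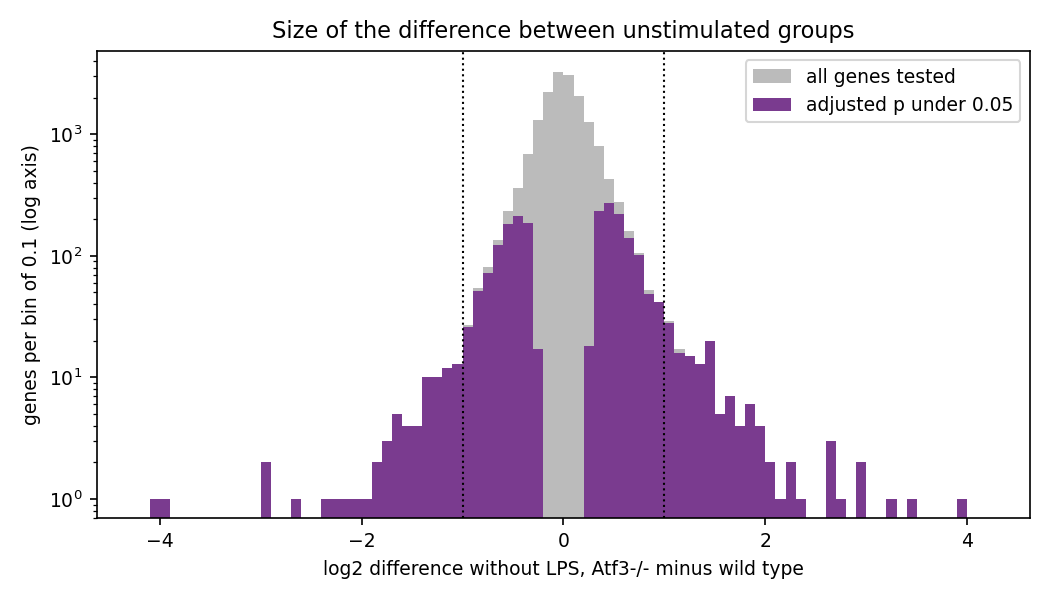
Number of genes (vertical axis, log scale, bins of 0.1) by log2 difference without LPS, Atf3-/- minus wild type (horizontal axis), for all 16856 genes (grey) and for the 2159 past the threshold (purple), with dotted lines at a 2-fold difference. The 133 and 73 genes past both limits form the thin tails on either side.

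Fewer genes were called when the state was taken into account, while the fitted differences of the 206 genes stayed near their size. With Atf3-/- replicate 3 as the only Atf3-/- array without LPS, 328 genes were called (1.95% of those tested), 203 higher and 125 lower. At least 2-fold differences were called for 125 genes higher and 55 lower in that fit. A fit of all 10 arrays with the state as a term called 1055 genes (6.26%), 652 of them higher and 403 lower, and the at least 2-fold ones numbered 161 higher and 63 lower. The first of these fits also has 1 Atf3-/- array in place of 3, so that state and number of arrays change together, and standard errors were larger in both, with a median ratio to those first found of 1.50 with the single Atf3-/- array and of 1.28 with the state as a term. Of the 206 genes first found, all 206 kept their direction with the single array, 177 remained at least 2-fold apart, 121 of them higher and 56 lower, and 131 passed the threshold. The single array is one of those that chose the 206 genes, so this repeats part of the same measurement. The median ratio of the differences to those first found was 1.03 with the single array and 1.02 with the state as a term.

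The 206 genes were chosen on the mean and spread of the same 3 Atf3-/- arrays, so the values of single arrays are given as a description. For the 133 higher genes the median distance of a single Atf3-/- array from the wild type mean was 1.37 in replicate 1, 1.27 in replicate 2 and 1.47 in replicate 3 on the log2 scale. At least 2-fold distances were reached by 117, 110 and 121 of the 133 genes in these arrays. For the 73 lower genes the median distances were -1.39, -1.48 and -1.25, and 62, 69 and 56 genes reached 2-fold. Replicate 3 was the highest of the 3 arrays in 72 of the 133 higher genes, replicate 1 in 42 and replicate 2 in 19. Over all genes the shares were 32.5% for replicate 3, 30.1% for replicate 1 and 37.3% for replicate 2. Replicate 3 is the one in the high state, and the part that the state has in this order was not tested.

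The arrays of the groups did not overlap in 5740 genes, 34.1% of those tested. They did not overlap in 2153 of the 2159 genes called, a count largely fixed by the call itself, so nothing is read from it. The higher genes and the lower genes were unevenly spread over the range of expression. Genes were divided into 4 equal groups by their mean level over all arrays. In the group with the lowest levels 129 of 4214 genes were called (3.06%), 26 higher and 103 lower. In the group with the highest levels 907 of 4214 were called (21.5%), 553 higher and 354 lower. Of the 133 genes at least 2-fold higher in Atf3-/-, 76 lay in that top group and 4 in the bottom group. Of the 73 at least 2-fold lower, 22 lay in the top group and 5 in the bottom group. The standard errors were alike across the groups of genes, with medians of 0.104 in the lowest and 0.108 in the highest. A change in a gene whose signal is mostly background is measured as a smaller one, and the part of this in the uneven spread was not tested.

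**Figure D3:**
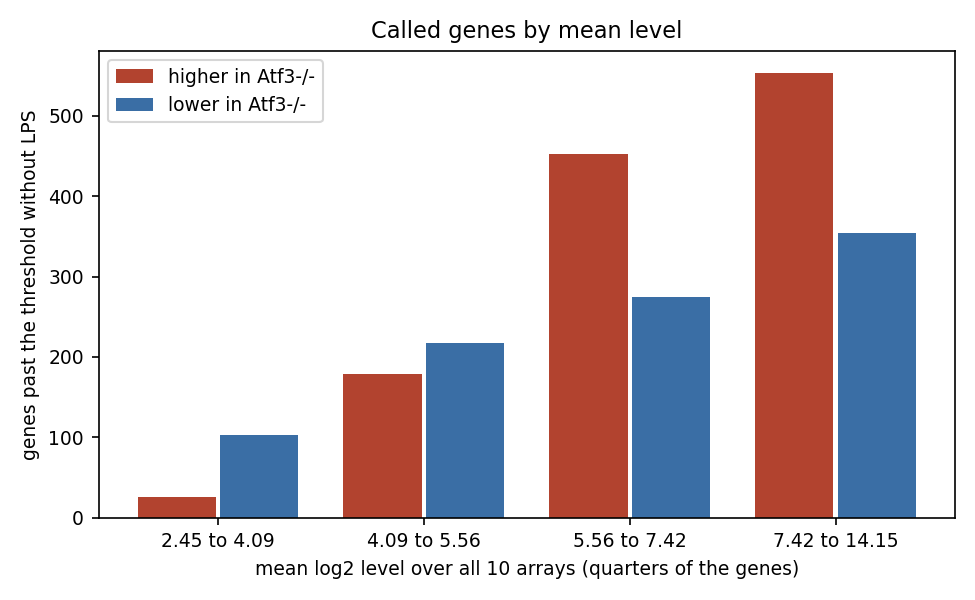
Number of genes past the threshold without LPS (vertical axis, from 0), higher (red) or lower (blue) in Atf3-/-, in 4 equal groups of genes by mean log2 level over all 10 arrays (horizontal axis, range of each group). Higher calls numbered 26, 179, 452 and 553 from the lowest to the highest group, and lower calls 103, 217, 275 and 354.

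The 4 arrays from cells given LPS share no array with the resting comparison, although 1 estimate of the spread served both. In the high state were 1 of 2 Atf3-/- arrays and 0 of 2 wild type arrays with LPS. State and genotype were thus partly confounded here too, in the opposite direction to the resting arrays. After LPS 663 genes differed between the genotypes, 3.93% of those tested, with 332 higher (1.97%) and 331 lower (1.96%) in Atf3-/-. Of the 133 genes at least 2-fold higher in resting Atf3-/- cells, 97 had a higher mean in Atf3-/- after LPS, against 8779 of all 16856 genes. The threshold was passed after LPS by 35 of them in the same direction (26.3%, against 2.68% of all genes) and by 1 in the opposite direction. Of the 73 genes at least 2-fold lower, 56 had a lower mean in Atf3-/- after LPS, against 8077 of all genes. Of these 73, 20 passed the threshold in the same direction (27.4%, against the same 2.68%) and 1 in the opposite direction. The median log2 difference after LPS was 0.40 for the higher set and -0.36 for the lower set, against 0.0095 over all genes. Differences after LPS of at least 50% of the resting one, in the same direction, were also counted. They were found for 41 of the 133 higher (30.8%) and 28 of the 73 lower genes (38.4%). Among all 2159 genes called without LPS the share was 19.5%. It was 33.7% over all 16856 genes, but nearly all of these were less than 2-fold apart at rest. Where the resting difference is near 0, 50% of it is easily reached. The 33.7% is thus no background for the at least 2-fold sets, and nothing is read from it. The counts past the threshold after LPS lean on single LPS arrays. In each fit below the at least 2-fold sets were chosen anew. The 35 became 20 without Atf3-/- LPS replicate 2, 21 without wild type LPS replicate 1 and 22 without wild type LPS replicate 2, and the 20 became 12 without wild type LPS replicate 1. The 663 became 320 without Atf3-/- LPS replicate 2 and 239 without wild type LPS replicate 1. In the fit with the state as a term the 35 became 23, out of 161 higher genes in place of 133, and the 663 became 419.

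**Figure D4:**
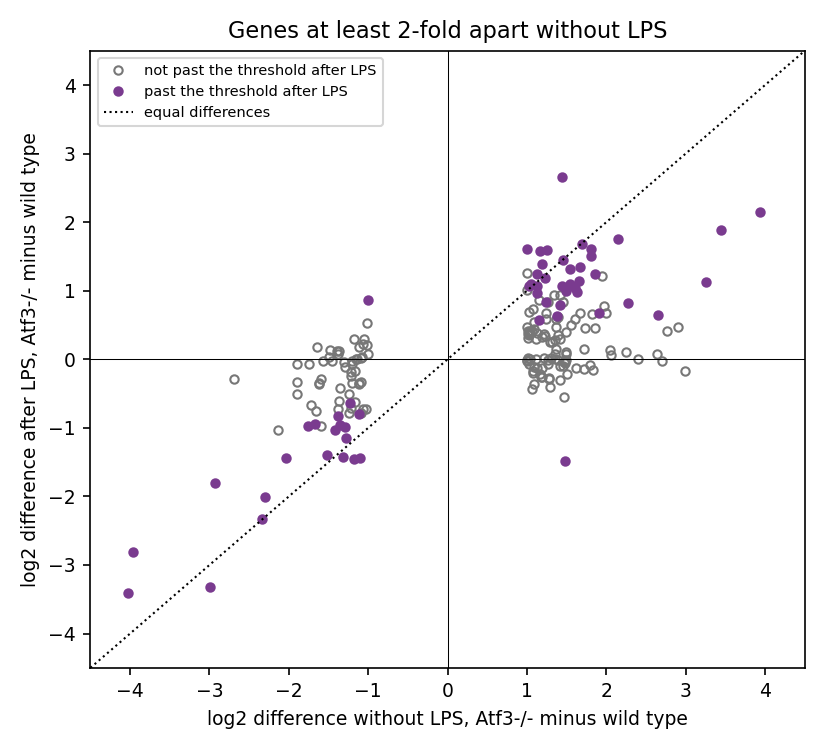
Log2 difference after LPS (vertical axis) against log2 difference without LPS (horizontal axis), both Atf3-/- minus wild type, for the 206 genes at least 2-fold apart without LPS, with filled points past the threshold after LPS and a dotted line for equal differences. Most points lie nearer to 0 on the vertical axis than on the horizontal one, with medians after LPS of 0.40 for the genes higher and -0.36 for those lower at rest.

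The named genes kept their direction after LPS. ENSMUSG00000029322 had values of 8.78 and 8.24 in Atf3-/- arrays with LPS and of 6.20 and 6.53 in wild type arrays with LPS (log2 difference 2.15, SE 0.24, limma adjusted p = 6.17e-04). ENSMUSG00000034438 had values of 7.19 and 7.16 in Atf3-/- arrays with LPS and of 5.44 and 5.15 in wild type arrays with LPS (log2 difference 1.88, SE 0.15, limma adjusted p = 6.46e-05). In both genes the genotypes lay nearer to each other than at rest, without overlap. The change with LPS in ENSMUSG00000029322 was 0.94 in Atf3-/- cells and 2.73 in wild type cells on the log2 scale. That in ENSMUSG00000034438 was 0.72 in Atf3-/- cells and 2.28 in wild type cells. These changes share the resting arrays with the comparison of genotypes. In wild type cells they also run from 3 high-state arrays to 2 low-state arrays, so LPS and state cannot be told apart there. All 3 resting Atf3-/- arrays were above both wild type arrays with LPS in each gene.

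The genes that were lower at rest were also lower after LPS. ENSMUSG00000056071 had values of 4.57 and 4.62 in Atf3-/- arrays with LPS and of 7.91 and 8.10 in wild type arrays with LPS (log2 difference -3.41, SE 0.13, limma adjusted p = 2.56e-07). Its change with LPS was 0.18 in Atf3-/- cells (limma adjusted p = 0.262) and -0.44 in wild type cells (limma adjusted p = 0.0110). ENSMUSG00000056054 had values of 5.04 and 4.68 in Atf3-/- arrays with LPS and of 7.61 and 7.72 in wild type arrays with LPS, a log2 difference of -2.81 (SE 0.19, limma adjusted p = 2.27e-05). Its change with LPS was 0.44 in Atf3-/- cells (limma adjusted p = 0.0634) and -0.73 in wild type cells (limma adjusted p = 0.00500). In the wild type changes of these 2 genes too, LPS and state cannot be told apart. The low level of this pair in Atf3-/- cells was thus measured in all 5 Atf3-/- arrays, in both states of the arrays and with and without LPS.

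The change of the genotype difference between the states of stimulation was tested directly, as the difference after LPS minus that without LPS. It passed the threshold for 1020 genes, 6.05% of those tested, 407 above 0 (2.41%) and 613 below 0 (3.64%). Single arrays carried much of this number. Leaving out Atf3-/- LPS replicate 2 gave 506, and leaving out wild type LPS replicate 1 gave 296. Among resting arrays, Atf3-/- replicate 2 or 3 left out gave 535 or 614, and wild type replicate 1 left out gave 585. The fit with the state as a term gave 133. The high state held 1 of 3 Atf3-/- and 3 of 3 wild type arrays at rest, and 1 of 2 and 0 of 2 after LPS. Without that term the contrast therefore mixes state with genotype and LPS. Among the 133 genes higher at rest 64 lay below 0 and 0 above 0, and among the 73 lower at rest 29 lay above 0 and 0 below 0. The resting arrays that chose these sets are also in this contrast, so a shift toward 0 is built into the choice, and nothing is read from these counts. The change was -1.79 for ENSMUSG00000029322 (SE 0.31, limma adjusted p = 0.00944), -1.56 for ENSMUSG00000034438 (SE 0.19, limma adjusted p = 0.00221) and 1.16 for ENSMUSG00000056054 (SE 0.25, limma adjusted p = 0.0206). For ENSMUSG00000056071 it was 0.62 (SE 0.17, limma adjusted p = 0.0557), which missed the threshold. The named genes were chosen for the largest differences on the same resting arrays. The built-in shift toward 0 holds for them too, so these p-values are not read as support for a change. Their changes with the state as a term are not given here.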

How the data were processed

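The authors deposited log2 expression values for 16860 gene-level probesets and 10 arrays, with 0 missing cells. Per the series' design text, probe intensities released earlier were re-processed with CustomCDF version 13 probesets, which regroup probes by Ensembl gene. Per the submitters' processing notes, affy 1.26.1 was used. The sources used here give neither the background correction nor the normalization. Medians of the unstimulated arrays ranged from 5.50 to 5.56.

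All 10 arrays were fitted with 1 mean per group in limma 3.58.1 (R 4.3.3; lmFit and eBayes; 6 residual and 5.50 prior degrees of freedom). P-values are two-sided and were adjusted over 16856 genes by the Benjamini-Hochberg method. The fit was tested on simulated data with independent noise and no state of the arrays, so that test does not cover the partial confounding of state and genotype. The comparison, the lists and the rule for named genes were chosen with earlier results of these data known. That rule asked for symbols, nearest neighbours of Atf3 and members of 38 gene lists. Without symbols it was limited to the 2 largest differences per direction among non-overlapping genes, and the lists were not run. An array was in the high state above 6.26, the midpoint of the range of ENSMUSG00000086503. Arrays limit precision by their number. The main fit did not pair arrays by replicate number, and whether the numbers mark pairs was not settled.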

Additional observations from a re-analysis of the deposited data

Results flagged for a closer look

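The genotype difference itself changed between resting and LPS-treated cells for 1020 genes by limma's test of that change, a count that was 133 with the state of the arrays as a covariate. Of the genes named above, 3 were among them. The change, after LPS minus without LPS, was -1.79 for ENSMUSG00000029322, -1.56 for ENSMUSG00000034438 and 1.16 for ENSMUSG00000056054. Each genotype difference was nearer to 0 after LPS. Each gene was chosen for its large resting difference, so a shift toward 0 is built into the choice and nothing is read from it. No gap test for an outlying array was made within groups of 2 and 3 arrays, and the effect of single arrays was followed by leaving each out and by array weights.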

How the results depend on the processing

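The log2 differences of the 4 named genes kept their direction and stayed past the threshold in all 15 alternatives, with ranges of 3.76 to 4.12 for ENSMUSG00000029322, 3.32 to 3.54 for ENSMUSG00000034438, -4.12 to -3.95 for ENSMUSG00000056071 and -4.32 to -3.79 for ENSMUSG00000056054. The 2159 genes called without LPS became 1055 with the state of the arrays as a covariate, 328 within the state, 206 with a 2-fold minimum, and 1199 to 1517 with each array left out. The lowest count was without Atf3-/- unstimulated replicate 2, and counts of 1339, 1388 and 1332 were found without Atf3-/- unstimulated replicate 3 and wild type unstimulated replicates 1 and 3. Fewer arrays widen the standard errors by construction, and other causes were not tested. The count without LPS rose to 3014 with array weights and to 2568 in a fit of only the 6 unstimulated arrays. The 663 genes called after LPS became 415 with array weights, 419 with the covariate and 239 to 975 with each LPS array left out. An array alone in its group was assumed to vary like the others. The 1020 changes of the genotype difference became 133 with the covariate, 387 with a 2-fold minimum and 296 to 1364 with each array left out. The at least 2-fold counts without LPS stayed within 117 to 152 higher and 63 to 83 lower with each array left out. With the replicate number as a block 2558 genes were called without LPS, 813 after LPS and 1296 for the change, and the named genes' differences without and after LPS stayed past the threshold. The change of ENSMUSG00000056071, 0.62, then passed it (limma adjusted p = 0.0281 with the block), and the changes of the other 3 named genes kept their calls. The deviations of same-numbered arrays correlated at 0.31, -0.0053 and 0.073, and not every array correlated best with its own number. Counts within the gene lists were not run, since the IDs have no names here. The background correction could not be varied.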
